A study of Mus musculus with 16 samples.

Results

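The genes described are Il33, which encodes the cytokine interleukin-33, both chains of its receptor (Il1rl1 and Il1rap), and Tnfsf13b, which encodes the cytokine BAFF. They are 4 of the 57180 genes counted in whole lungs of mouse fetuses, and they were taken by symbol. Il33 and Tnfsf13b were chosen on the measured values in these libraries, because both were lower after BMS493. Their levels and fold changes are therefore a description with no test. Il1rl1 and Il1rap were added as the known receptor of Il33, with results for these libraries already in view, and for them the test across all genes is given.

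Interleukin-33 is held in the nucleus of epithelial, endothelial and stromal cells and acts as an alarm signal once it leaves a damaged cell. It binds ST2, the product of Il1rl1, and Il1rap supplies the second chain that recruits MyD88 and switches on NF-kappaB. Mast cells, regulatory T cells and group 2 innate lymphoid cells carry ST2, and in the lung the pathway is known for type 2 inflammation and airway hyperresponsiveness. BAFF is a ligand of the TNF superfamily, made by myeloid and stromal cells and cut from the membrane by a furin protease. It keeps B cells alive through BAFF-R, TACI and BCMA.

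Lungs were collected at the embryonic stage E14.5 from C57BL/6J (B6) or A/J fetuses, which the design text gives as male. From E9.5 until E14.5 the dams were given BMS493 orally, a compound that holds all retinoic acid receptors in their inactive state, at a daily dose of 3.75 µg per g. Control dams received corn oil over the same time. Each of the 4 combinations of strain and treatment had 4 poly(A)-selected libraries, and the labels name no engineered allele. Which fetuses came from 1 litter is not stated, so the p-values measure the spread between these libraries, which may be technical.

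Between 15207539 and 24146224 fragments per library were assigned to genes, and 17276 genes had counts high enough to test. All 4 genes were among these. The summed level of 10 lung epithelial markers was between 1260 and 2730 CPM (counts scaled to the assigned fragments of a library) in every library, and that of 10 lung fibroblast markers was between 5859 and 9726 in 15 libraries. Replicate 3 of the B6 BMS493 group stood apart at 15040. Its part in the results is given as values without that library.

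The promoters of the 2 ligands are shown because BMS493 acts on retinoic acid receptors, which bind pairs of a short hexamer in DNA, often spaced by 5 bases (a DR5 element). The sequences are RefSeq's, from build GRCm38.p6, and each covers the 250 bases before a transcript's start. The deposited counts are on GRCm39, so these coordinates were not joined to them. Il33 has 2 annotated starts, and capitals mark TATAAA, the letters of a TATA box, in each of its promoters, chr19:29924863-29925112 for the first and chr19:29945540-29945789 for the second, both on the plus strand. For Tnfsf13b the promoter of the first start is shown, chr8:10006217-10006466 on the plus strand, with a DR5 match and 1 further retinoid hexamer in capitals.
Il33, first start: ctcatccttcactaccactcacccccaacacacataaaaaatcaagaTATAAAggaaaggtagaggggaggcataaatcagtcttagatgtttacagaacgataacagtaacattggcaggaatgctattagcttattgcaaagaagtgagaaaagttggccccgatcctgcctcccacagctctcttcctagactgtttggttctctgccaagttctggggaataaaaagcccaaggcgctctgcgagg
Il33, second start: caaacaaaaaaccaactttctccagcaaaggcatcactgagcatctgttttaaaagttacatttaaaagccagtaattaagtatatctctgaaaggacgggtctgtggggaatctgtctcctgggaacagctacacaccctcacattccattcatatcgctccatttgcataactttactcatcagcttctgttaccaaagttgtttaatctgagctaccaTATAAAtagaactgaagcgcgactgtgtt
Tnfsf13b, first start: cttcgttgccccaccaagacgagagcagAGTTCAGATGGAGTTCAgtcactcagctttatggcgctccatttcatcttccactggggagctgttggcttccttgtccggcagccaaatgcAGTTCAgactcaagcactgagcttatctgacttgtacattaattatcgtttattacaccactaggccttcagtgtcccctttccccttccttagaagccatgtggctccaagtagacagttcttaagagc

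TATAAA ends 24 bases before the second start of Il33, and the first promoter of Il33 has it 203 to 198 bases before the start. These letters were in 12.4% of the 32851 mouse promoters in the table. Neither Il33 promoter held a retinoid hexamer (AGGTCA or 3 close variants of it, on either strand), which 38.6% of all promoters did. The Tnfsf13b promoter held the DR5 match 222 to 206 bases before its start, and the hexamers of the match are also counted as hexamers. A DR5 match was found in 29 promoters, or 0.0883%, belonging to 28 genes. Rarb and Cyp26a1, textbook targets of retinoic acid through a DR5 element, were among them. Their matches are set beside that of Tnfsf13b with the hexamers in capitals: chr8:10006245-10006261 for Tnfsf13b, chr14:16575513-16575529 for Rarb, a gene on the minus strand, and chr19:37697776-37697792 for Cyp26a1, where the match is on the strand opposite to the gene.
Tnfsf13b: AGTTCAgatggAGTTCA
Rarb: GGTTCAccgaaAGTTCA
Cyp26a1: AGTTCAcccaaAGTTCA

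Tnfsf13b carries AGTTCA in both positions, as Cyp26a1 does, with other letters between them. Of the 28 genes with a match, 7 other than Tnfsf13b were tested, and 1 of these, Rarb, was called in each strain, where 0.423% of all genes were called in B6 and 0.486% in A/J. The B6 call of Rarb was lost in 6 of 17 alternatives (edgeR adjusted p up to 0.144). The 7 genes had a median log2 fold change of -0.0007 with BMS493 in B6 and 0.04 in A/J. Cyp26a1 never exceeded 3 counts per library, too few to test. The promoter of the second Tnfsf13b start held an interferon response match (GAAANNGAAA, in 2.98% of promoters) 16 to 7 bases before it, and an AP-1 match (TGANTCA, in 6.75%) 127 to 121 bases before it, and 1 retinoid hexamer on the opposite strand 117 to 112 bases before it. The first Il1rl1 promoter held none of the motifs searched, and the second held 2 retinoid hexamers. The single Il1rap promoter held none and had 74.4% G and C, against a median of 52.4%, so it was the only one of the 7 promoters of the 4 genes above 60% G and C. A match describes letters in this window only, and binding was not measured.

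Il33 was lower after BMS493 in every library of both strains. In B6 controls (replicates 1 to 4) its level was 3.76, 4.54, 4.20 and 4.72 CPM, scaled with the TMM factors of edgeR. In B6 lungs with BMS493 it was 0.757, 1.56, 1.67 and 1.03 CPM. The lowest B6 control therefore had more Il33 than the highest B6 library with BMS493, and the groups do not overlap.

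In A/J controls Il33 was at 3.76, 3.68, 4.05 and 2.95 CPM, and in A/J lungs with BMS493 at 1.07, 0.220, 1.30 and 0.705 CPM. These groups do not overlap either. Replicate 2 of the A/J BMS493 group had the lowest Il33 of all 16 libraries, at 5 counts. The other libraries with BMS493 had 14 to 37 counts, and the controls 52 to 110.

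Group means of Il33 were 4.31 ± 0.422 CPM in B6 controls and 1.26 ± 0.433 with BMS493 (SD, n = 4 each), so that 29.2% of the control level was left. In A/J they were 3.61 ± 0.469 and 0.824 ± 0.471 (SD, n = 4 each), which left 22.8%. The fitted log2 fold changes were -1.78 (SE 0.30, 95% interval -2.39 to -1.17) in B6 and -2.13 (SE 0.31, -2.77 to -1.50) in A/J. Ordered by fold change from the lowest, Il33 stood at place 19 of 17276 genes in B6 and at place 15 in A/J. These are the values on which the gene was chosen, and no p is given for them. In whole lung, fewer cells that make a transcript and less of it per cell cannot be told apart.

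Tnfsf13b was also lower in every library with BMS493, from a control level that differed between the strains. In B6 controls it was at 5.36, 5.37, 5.98 and 5.11 CPM, and with BMS493 at 2.88, 0.634, 1.47 and 2.12. In A/J controls it was at 9.69, 12.1, 9.88 and 11.8 CPM, and with BMS493 at 2.50, 0.836, 2.14 and 2.87. Neither pair of groups overlaps, and the control groups of the 2 strains do not overlap each other.

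The mean of Tnfsf13b went from 5.46 ± 0.370 to 1.78 ± 0.955 CPM in B6, leaving 32.5%, and from 10.9 ± 1.25 to 2.09 ± 0.886 CPM in A/J, leaving 19.2% (SD, n = 4 each). The log2 fold changes were -1.64 (SE 0.32, 95% interval -2.30 to -0.97) in B6 and -2.39 (SE 0.30, -3.01 to -1.77) in A/J. Tnfsf13b stood at place 26 of 17276 genes from the lowest in B6 and at place 8 in A/J. Its lowest libraries were replicate 2 of the BMS493 group in both strains, with 15 and 19 counts, against 78 to 130 in B6 controls and 201 to 279 in A/J controls. Without that B6 library the B6 fold change was -1.31, and without that A/J library the A/J fold change was -2.12.

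Both cytokines, 2 of the 4 genes, had BMS493 groups wholly below the controls in each strain. Among all genes tested the same was so for 2.63% in B6 and 2.84% in A/J, and since the genes were picked for this pattern nothing is read from the difference. Without the B6 library that stood apart, replicate 3 with BMS493, the B6 fold changes were -1.92 for Il33 and -1.58 for Tnfsf13b.

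**Figure D1:**
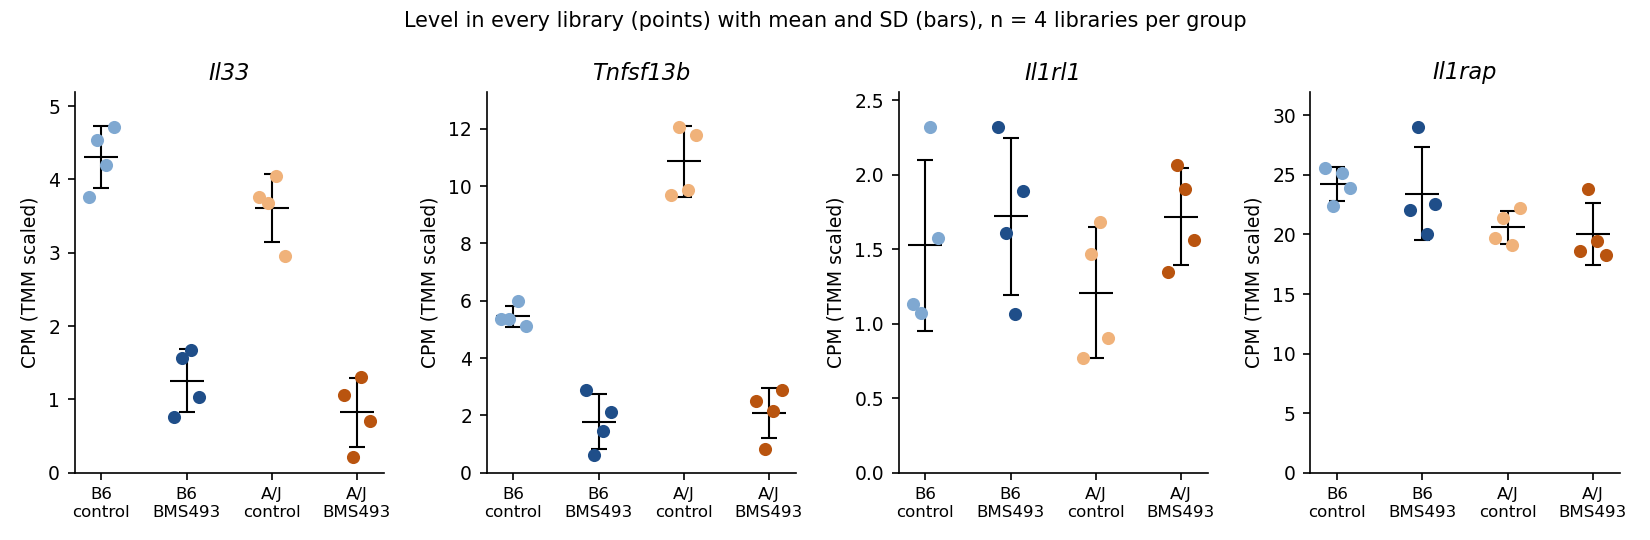
Level of Il33, Tnfsf13b, Il1rl1 and Il1rap in each of the 16 libraries, in CPM from 0 on a scale of its own for each gene, with the mean and SD of the 4 libraries of a group. The BMS493 points of Il33 (0.220 to 1.67 CPM) and Tnfsf13b (0.634 to 2.88 CPM) all lie below the controls, while those of Il1rl1 and Il1rap overlap the controls.

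The spread between replicates did not go one way over the 4 genes. The coefficient of variation of Il33 was 9.79% in B6 controls and 34.5% with BMS493, and 13.0% and 57.2% in A/J. That of Tnfsf13b was 6.79% and 53.7% in B6 and 11.5% and 42.5% in A/J. Il1rl1 had the reverse order, at 37.8% in B6 controls and 30.6% with BMS493, and at 36.3% and 19.0% in A/J. Il1rap was at 5.91% and 16.7% in B6 and at 6.85% and 12.9% in A/J. The counts per library of both cytokines were lower with BMS493. Counting error by itself, taken from the mean count, would give Il33 10.8% in B6 controls and 20.5% with BMS493, and 11.5% and 23.9% in A/J. For Tnfsf13b it would give 9.61% and 17.5% in B6 and 6.65% and 15.1% in A/J. Neither the part of the counts in the spread nor the difference in spread was tested.

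The strains differed in Tnfsf13b and much less in Il33 when no drug was given. Both strains were counted on the same build, and the part of A/J sequence variants in any strain difference was not tested. Tnfsf13b in A/J controls was at 199% of the B6 level, a log2 difference of 0.99 (SE 0.27). With BMS493 the strains overlapped, at 2.09 and 1.78 CPM, and the log2 difference was 0.24 (SE 0.34). It ran from -0.08 (without replicate 2 of the B6 BMS493 group) to 0.61 (without replicate 1 of it) when each library was left out in turn, so its direction turned with 1 library. The fitted BMS493 effect in A/J minus that in B6 was -0.75 on the log2 scale, with an SE of 0.44 and a 95% interval of -1.67 to 0.17.

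Il33 overlapped between the strains in both treatments, with log2 differences (A/J minus B6) of -0.25 (SE 0.26) in controls and -0.61 (SE 0.34) with BMS493. Leaving out each library in turn moved the latter from -0.92 (without replicate 3 of the A/J BMS493 group) to -0.28 (without replicate 2 of it). Its BMS493 effects differed by -0.36 (SE 0.43, 95% interval -1.24 to 0.53). Across the 4 groups the levels of Il33 ran from B6 controls over A/J controls and B6 with BMS493 to A/J with BMS493, with overlap within each treatment. Those of Tnfsf13b ran from A/J controls over B6 controls to the BMS493 groups, which overlap each other.

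**Figure D2:**
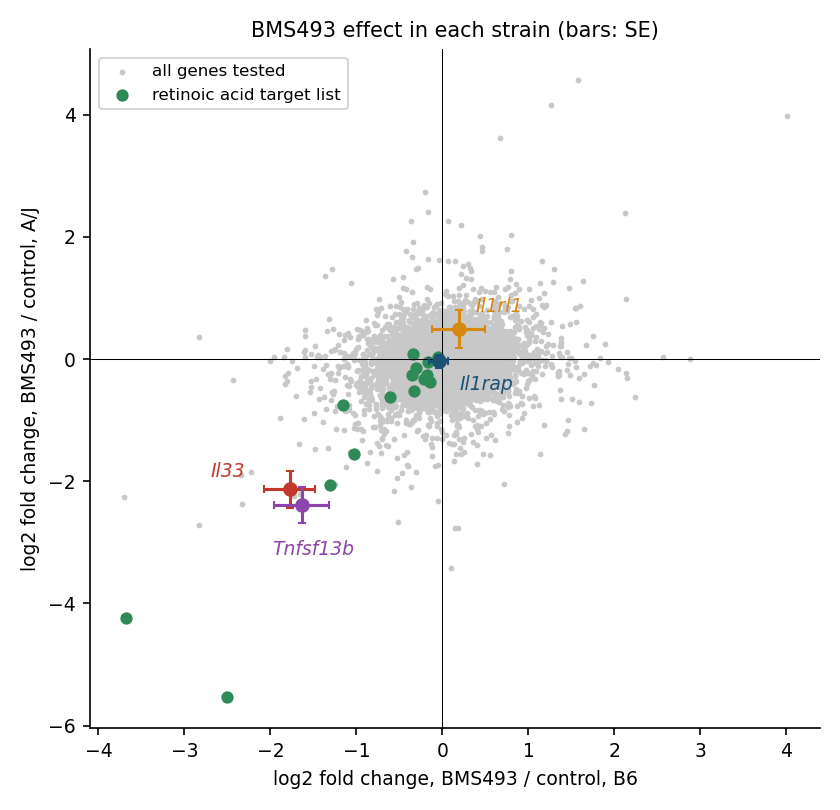
Log2 fold change of BMS493 over control in B6 (horizontal) and A/J (vertical) for all 17276 genes tested (grey), the tested genes of a list of retinoic acid targets (green) and the 4 genes with their SE. Il33 (-1.78, -2.13) and Tnfsf13b (-1.64, -2.39) lie at the lower left edge of the cloud, and Il1rl1 and Il1rap near its centre.

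Neither chain of the receptor was called with BMS493. Il1rl1, which encodes ST2, was at 1.13, 1.07, 2.32 and 1.57 CPM in B6 controls and at 2.32, 1.61, 1.07 and 1.90 with BMS493. In A/J it was at 0.772, 1.47, 1.69 and 0.908 CPM in controls and at 1.35, 2.07, 1.91 and 1.56 with BMS493. The groups overlap in both strains, and the 16 libraries hold 503 counts of the gene in all.

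The log2 fold change of Il1rl1 was 0.19 in B6 (SE 0.31, adjusted p = 0.896 by the quasi-likelihood test of edgeR with Benjamini-Hochberg adjustment over all genes). Its 95% interval was -0.45 to 0.83. In A/J it was 0.50 (SE 0.31, edgeR adjusted p = 0.941), with an interval of -0.14 to 1.14. Leaving out each library in turn moved the B6 value from 0.02 (without replicate 1 with BMS493) to 0.48 (without control replicate 3), with 0.35 without replicate 3 with BMS493, and the A/J value from 0.33 to 0.69, and 0 of these fits called it. Averaged over the strains it was 0.34 (SE 0.22, edgeR adjusted p = 0.616). The intervals leave room for a rise of more than 2-fold in A/J but not for a fall as large as that of Il33 in either strain. The counts do not separate the membrane form of ST2 from the soluble decoy form made from the same gene.

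Il1rap, the chain shared with the interleukin-1 and interleukin-36 receptors, was at 25.6, 22.4, 25.2 and 23.9 CPM in B6 controls and at 22.0, 29.0, 20.0 and 22.6 with BMS493. In A/J it was at 19.7, 21.3, 19.1 and 22.2 CPM in controls and at 18.6, 23.8, 19.5 and 18.2 with BMS493. Replicate 2 was the highest library of the BMS493 group in both strains, and the treatments overlap.

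Il1rap had a log2 fold change of -0.05 in B6 (SE 0.11, edgeR adjusted p = 0.932, 95% interval -0.26 to 0.17). In A/J the log2 fold change was -0.04 (SE 0.11, edgeR adjusted p = 1, interval -0.26 to 0.18). Il1rap was counted 7166 times, and its intervals are narrower than those of Il1rl1. Gm20319 lies on the opposite strand of Il1rap, and 15.2% of the fragments that the stranded columns give to Il1rap are missing from the column without strand that was used.

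By edgeR, 0 of the 2 receptor genes were called at an adjusted p under 0.05 for BMS493 in B6, in A/J or averaged over the strains, where 0.423%, 0.486% and 1.37% of all genes were. For the difference between the strains in the BMS493 effect 0 of 2 were called, against 0.00579% of all genes. At an unadjusted p under 0.05 and by DESeq2 the counts were 0 as well in these 4 comparisons.

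Between the strains 0 of the 2 receptor genes were called by edgeR in controls or with BMS493, where 16.9% and 20.0% of all genes were, and DESeq2 called 0. Il1rap was the 1 with an unadjusted p under 0.05 in each. Its A/J controls (19.1 to 22.2 CPM) all lay below its B6 controls (22.4 to 25.6 CPM), with a log2 difference of -0.24 (SE 0.11, edgeR adjusted p = 0.137). With BMS493 the log2 difference was -0.23 (SE 0.11, edgeR adjusted p = 0.144), and the call appeared when replicate 3 of the B6 BMS493 group was left out (-0.30, edgeR adjusted p = 0.0480) or replicate 2 of the A/J one (-0.32, edgeR adjusted p = 0.0423). Tnfsf13b and Il1rap were thus 2 of the 4 genes whose control groups did not overlap between the strains, as was so for 24.3% of all genes. Il1rl1 differed by -0.32 (SE 0.32, edgeR adjusted p = 0.554) in controls.

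Per kilobase of exon, which allows levels of different genes to be set side by side, Il1rap was the most abundant of the 4 in every group, at 1.77 to 2.14 CPM per kb. In B6 controls Il33 followed at 1.49, then Tnfsf13b at 0.795 and Il1rl1 at 0.221 CPM per kb. In A/J controls Tnfsf13b (1.58) came before Il33 (1.25), with Il1rl1 at 0.175. With BMS493 Il33 was at 0.435 in B6 and 0.285 in A/J, Tnfsf13b at 0.259 and 0.304, and Il1rl1 at 0.250 CPM per kb in both. By CPM alone Tnfsf13b (5.46) came before Il33 (4.31) in B6 controls, so that order rests on the lengths used. Exon lengths cover every exon annotated for a gene in GENCODE M21, which can exceed the length of the transcript expressed. The annotation behind the counts may differ from GENCODE M21.

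A list of 23 genes of signalling downstream of the receptor and its regulators, among them Myd88 (the adaptor), Irak1, Irak4 and Traf6, was tested in full. By edgeR 0 of the 23 were called with BMS493 in either strain, where 0.423% and 0.486% of all genes were, with 0 at an unadjusted p under 0.05 in B6 and 1 (Irak1) in A/J, and DESeq2 called 0. The median log2 fold change was 0.03 in B6 and -0.01 in A/J, against 0.007 and -0.002 over all genes.

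Between the strains 5 of the 23 signalling genes were called in controls, where 16.9% of all genes were. Myd88 was lower in A/J (-0.48, SE 0.12, edgeR adjusted p = 0.00549), at 12.9 against 18.1 CPM. Rela, a subunit of NF-kappaB, was lower by a log2 difference of -0.22. The kinase Map3k7 and its partners Tab1 and Tab2 were higher by 0.18 to 0.28 on the log2 scale. With BMS493 7 were called, where 20.0% of all genes were, with Myd88 at -0.57 and Sigirr, a receptor that dampens the pathway, at -0.73.

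Interleukin-33 gains activity when proteases cut it, and of 13 such enzymes listed 8 were tested. In A/J, where 0.486% of all genes were called, 2 of the 8 were: the mast cell chymase Cma1 (2.03, SE 0.35, edgeR adjusted p = 0.00281) and tryptase Tpsb2 (1.49, SE 0.33, edgeR adjusted p = 0.033). Cma1 went from 1.02 to 4.18 CPM and Tpsb2 from 0.971 to 2.75 CPM. The call of Tpsb2 was lost in 8 of 17 alternatives, among them leaving out any 1 of the A/J controls or replicate 3 or 4 with BMS493 (edgeR adjusted p up to 0.182 over all alternatives), and that of Cma1 in 0. In B6 edgeR called 0 of 8, where 0.423% of all genes were called, with 1 (Cma1, 0.79) at an unadjusted p under 0.05, and DESeq2 called 0. The proteins' activity was not measured.

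Since mast cells carry ST2, their markers are given beside Il1rl1. Of 11 mast cell markers 6 were tested, and 3 (Cpa3, Cma1 and Tpsb2) were called higher in A/J with BMS493, where 0.486% of all genes were called, with a list median of 1.52 on the log2 scale. In B6, where 0.423% of all genes were called, edgeR called 0 of the 6 (median 0.31). The difference between the strains in the BMS493 effect was not called for any of the 6 by edgeR (adjusted p = 0.999 for Cpa3, Cma1 and Tpsb2), where 0.00579% of all genes were called. Averaged over the strains, where 1.37% of all genes were called, Cma1 (1.41, edgeR adjusted p = 0.00136) and Cpa3 (0.92, edgeR adjusted p = 0.0109) were. Their summed level in A/J ran from 69.5 to 83.2 CPM in controls and from 75.7 to 83.5 CPM with BMS493, most of it from Kit, which other cells also express. In B6 the sums were 105 to 119 and 88.1 to 136 CPM. Mrgprb1 had no counts in any library and Fcer1a at most 1. Of 12 markers of T cells and group 2 innate lymphoid cells, which also carry ST2, 7 were tested and edgeR called 0 with BMS493 in either strain or averaged over them, where 0.423%, 0.486% and 1.37% of all genes were called. Their median log2 fold changes were -0.15 in B6 and -0.05 in A/J, with 4 of 7 below 0 in each. Their sums overlapped between the treatments, at 16.4 to 20.0 and 16.5 to 22.6 CPM in B6 and at 13.2 to 17.5 and 12.5 to 15.1 CPM in A/J. Whether the numbers of these cells bear on the level of Il1rl1 was not tested.

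Transcripts of the cytokines that interleukin-33 induces in the adult lung were at the floor of detection. Il5 had at most 3 counts in any library, Il4 at most 2, Il13 at most 1 and Il9 0, which for a count of 0 allows up to 3 fragments per library. Tslp, another alarm cytokine of epithelium, was at 1.67 and 1.94 CPM in B6 controls and with BMS493, and at 1.17 and 1.48 CPM in A/J. Il25, the third, had at most 2 counts. In the list of 20 alarm and type 2 cytokines with their receptors 10 were tested and edgeR called 0 for BMS493 in either strain, where 0.423% and 0.486% of all genes were called, with 0 at an unadjusted p under 0.05 and 0 by DESeq2. The medians were 0.15 and 0.03. Between the strains 2 of the 10 were called in controls, where 16.9% of all genes were: Areg, a growth factor, and Csf2ra, a chain of the GM-CSF receptor, with log2 differences (A/J minus B6) of -1.93 and -0.74.

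Most other genes of the interleukin-1 family were too rare to test. Il18 was at 1.68 to 1.75 CPM in the 4 groups, Il1a had at most 11 counts and Il1b at most 3. Of 17 family genes listed 16 were matched and 5 tested, and edgeR called 0 with BMS493 in either strain, where 0.423% and 0.486% of all genes were called, with 0 at an unadjusted p under 0.05 and 0 by DESeq2. The receptors that share Il1rap were well expressed, Il1r1 at 16.4 to 21.5 CPM and Il1rl2, the interleukin-36 receptor, at 15.7 to 17.9 CPM.

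On the side of BAFF, its closest relative and its receptors were rare. Tnfsf13, which encodes APRIL, was at 0.519 and 0.443 CPM in B6 controls and with BMS493 and at 0.404 and 0.290 CPM in A/J. Tnfrsf13b, which encodes TACI, was at 2.23 and 2.02 CPM in B6 and at 1.42 and 1.16 CPM in A/J. Tnfrsf13c (BAFF-R) reached no more than 7 counts per library and Tnfrsf17 (BCMA) no more than 1. Furin, the protease that releases BAFF, was at 128 to 142 CPM.

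Of the 16 genes in the BAFF and APRIL list 14 were tested and edgeR called 0 for BMS493 in either strain, where 0.423% and 0.486% of all genes were called, with medians of 0.04 in B6 and -0.04 in A/J. At an unadjusted p under 0.05 there were 0 in B6 and 1 (Nfkb2, 0.29) in A/J, and DESeq2 called 0. Between the strains 1 of the 14 was called in controls, where 16.9% of all genes were: Traf3, which holds back the non-canonical NF-kappaB pathway, was higher in A/J by 0.26 on the log2 scale (SE 0.06, edgeR adjusted p = 0.00365). Among the other TNF superfamily ligands 7 of 17 were tested and edgeR called 0 in either strain, against the same shares of all genes, with 0 at an unadjusted p under 0.05 and 0 by DESeq2. Tnfsf10, which encodes TRAIL and is named here because of its measured level, had control levels near those of Tnfsf13b, at 5.50 CPM in B6 and 10.5 CPM in A/J. With BMS493 it was at 5.34 and 8.47 CPM, with log2 fold changes of -0.03 (SE 0.40) and -0.31 (SE 0.37).

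B cells, the main targets of BAFF, left few transcripts. Of 8 B cell markers 2 were tested. Their summed level was 3.18 to 5.54 CPM in B6 libraries and 0.908 to 2.00 CPM in A/J libraries. Ms4a1 (CD20) had at most 1 count in any library.

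**Figure D3:**
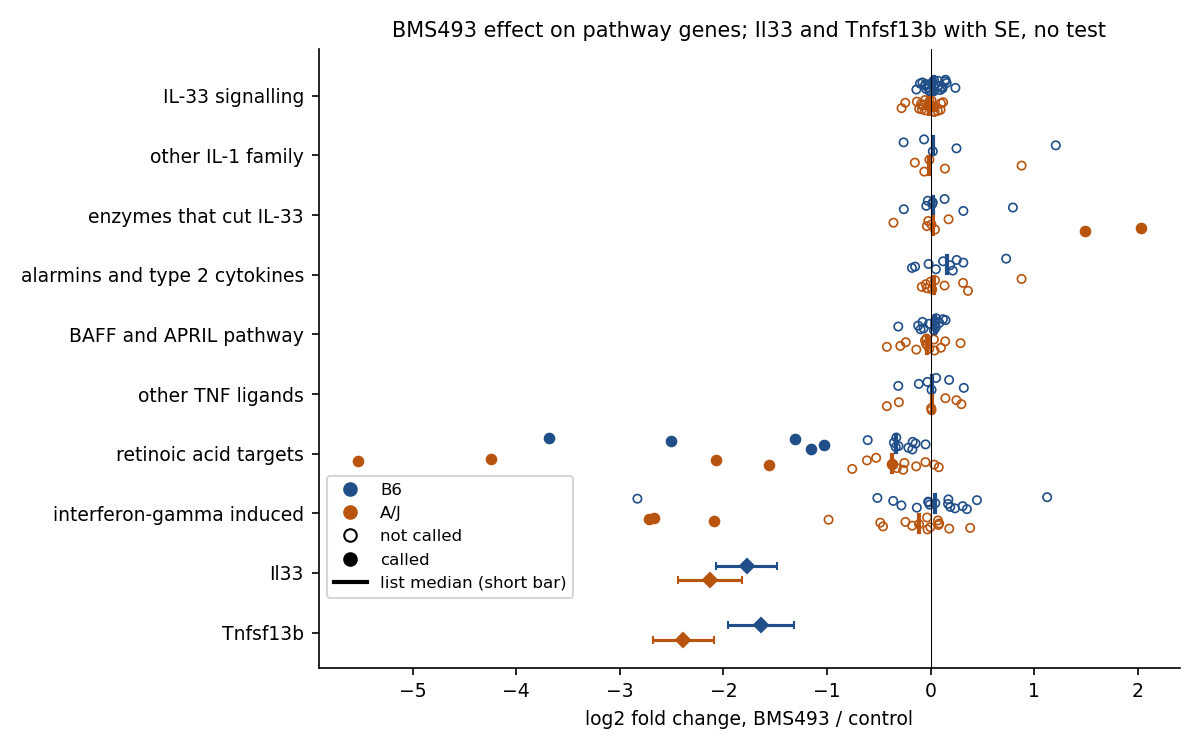
Log2 fold change of BMS493 over control for every tested gene of the pathway lists in B6 (blue) and A/J (orange), filled where called at an adjusted p under 0.05, with the median of each list as a short bar. Il33 and Tnfsf13b, at the bottom with their SE, lie below every gene of the upper 6 lists and within the range of the retinoic acid targets. Both were picked for being lower with BMS493.

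Some genes induced by retinoic acid were called lower with BMS493: 5 of the 15 tested in each strain, where 0.423% of all genes were called in B6 and 0.486% in A/J. The list held 20 genes, and the median log2 fold change of those tested was -0.34 in B6 (15 of 15 below 0) and -0.37 in A/J (13 of 15). In B6 the calls of Rarb and Stra6 were lost without any 1 of the B6 controls or without replicate 2 with BMS493, which left 3. Over 17 alternatives Stra6 was lost in 9 and Rarb in 6 (edgeR adjusted p up to 0.142 and 0.144). In A/J the call of Nrip1, a corepressor of nuclear receptors, with a log2 fold change of -0.37, was lost in 7 of 17, among them leaving out replicate 1, 2 or 4 of the controls or 1, 3 or 4 with BMS493 (edgeR adjusted p up to 0.172). Cyp26b1, which degrades retinoic acid, fell from 18.2 to 1.47 CPM in B6 and from 19.9 to 1.05 CPM in A/J. Dhrs3, a retinal reductase, fell from 17.7 to 7.19 CPM in B6 and from 17.6 to 4.20 CPM in A/J. Rarb, a retinoic acid receptor, fell from 8.38 to 4.19 and from 9.09 to 3.10 CPM.

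Lrat, which esterifies retinol, shared with Tnfsf13b both the higher level in A/J controls and the near equal level with BMS493. It was at 1.38 CPM in B6 controls and at 16.5 CPM in A/J controls, and with BMS493 at 0.248 and 0.355 CPM. Among 17 tested interferon-gamma induced genes, Gbp2, a guanylate-binding GTPase, went from 10.5 to 1.63 CPM in A/J (edgeR adjusted p = 1.67e-09) and from 2.49 to 1.73 CPM in B6, where it was not called (edgeR adjusted p = 0.42). Gbp2b and Gbp5 were called lower in A/J as well, the latter not in 4 of 16 alternatives (edgeR adjusted p up to 0.0818), which makes 3 of the 17 where 0.486% of all genes were called. In B6, where 0.423% were, edgeR and DESeq2 called 0 of the 17, with 4 at an unadjusted p under 0.05. Gbp2b was nearly absent from B6, at 0.033 CPM in controls and 0 with BMS493, so no fold is given for it there. For the BMS493 effect in A/J minus that in B6, edgeR called Gbp2 lower, the 1 gene called of all 17276 (0.00579%). Neither Gbp2b nor Gbp5 was called for that difference (edgeR adjusted p = 0.999 for each).

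The genes with the pattern most like Il33 over the 16 libraries, by Pearson correlation of log2 CPM among 13039 genes, were Dhrs3 (r = 0.926), Cyp26b1 (0.909), Lbh (0.906), Shisa9 (0.900) and Plppr5 (0.876). After the mean of each strain was subtracted, Art4 (0.926) joined Cyp26b1, Dhrs3, Lbh and Shisa9 in place of Plppr5. Lbh, a transcription cofactor, was at 219.6 and 175 CPM in B6 and at 218.5 and 138 CPM in A/J. Its relative change was thus far smaller than that of Il33, with log2 fold changes of -0.32 and -0.66. These correlations are a description: the points share libraries and treatment, and a gene that is lower with BMS493 scores high by that alone.

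Tnfsf13b was most like Plat (r = 0.952), Dcx (0.948), Asb4 (0.934), Gstm7 (0.928) and Pdzrn3 (0.928) over the same 16 libraries. With strain means subtracted the first were Asb4 (0.970), Dcx (0.961), Kyat3 (0.956), Plat (0.949) and Ccbe1 (0.948). No gene stood on the lists of both cytokines. Dcx, the microtubule protein doublecortin of young neurons, had higher A/J than B6 controls like Tnfsf13b, at 58.7 against 40.1 CPM, and was at 28.5 and 20.3 CPM with BMS493. Asb4 was at 27.7 and 18.0 CPM in the A/J and B6 controls and at 14.8 and 10.8 CPM with BMS493. Plat, tissue plasminogen activator, changed by -0.66 and -0.70 on the log2 scale in B6 and A/J.

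The receptor genes had other neighbours. Il1rl1 was most like Colgalt2 (r = 0.841), Etnk2 (0.781), Apopt1 (0.769), Kif18b (0.737) and Mterf4 (0.733), none of which was called with BMS493. Il1rap was most like Sema3c (0.931), Aff1 (0.921), Cacna2d1 (0.895), Cdc42ep3 (0.893) and Mef2a (0.886), likewise not called. Of 5 genes, Pearson and Spearman correlations shared 2 to 4 for each of the 4 genes.

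Il33 and Tnfsf13b correlated with each other at r = 0.746 over the 16 libraries and 0.846 with strain means subtracted. The rank correlations (Spearman's rho) were 0.612 and 0.765. With the mean of each of the 4 groups subtracted r was 0.176 and rho -0.191, so little of the likeness was left within groups. The library with the least Il33 in A/J with BMS493, replicate 2, also had the least Tnfsf13b there, at 0.220 and 0.836 CPM. In B6 with BMS493 the order was the reverse: replicate 1 had the least Il33 (0.757 CPM) and the most Tnfsf13b (2.88 CPM). Tnfsf13b and Il1rap had r = -0.709 with group means subtracted (Spearman's rho -0.359), for which the replicates numbered 2 with BMS493, low in the first gene and high in the second, are the extremes in both strains.

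**Figure D4:**
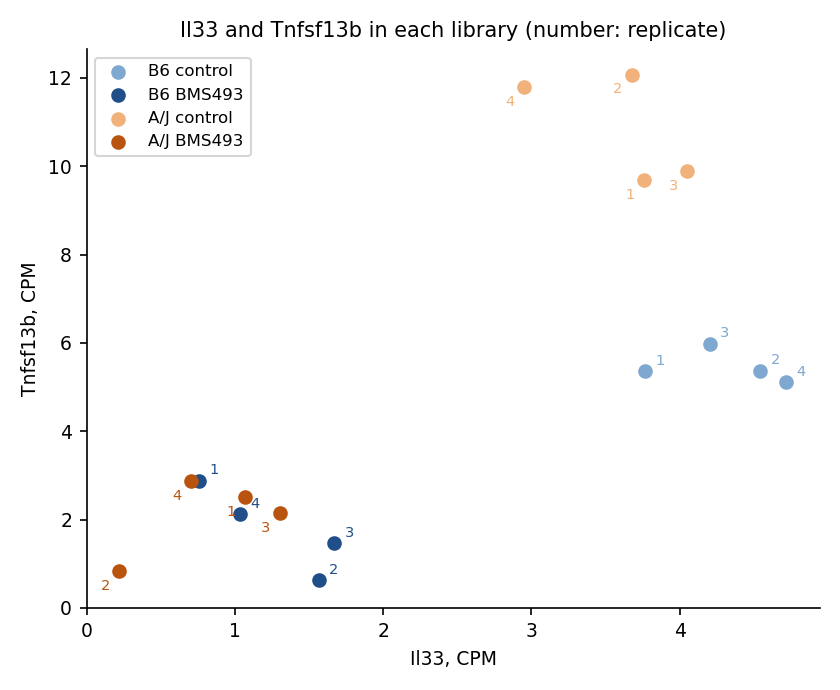
Il33 (horizontal) against Tnfsf13b (vertical) in CPM for each of the 16 libraries, coloured by group and numbered by replicate. The BMS493 libraries of both strains lie together near the origin, up to 1.67 and 2.88 CPM, while the controls are split by strain along Tnfsf13b only.

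Summed cell type markers differed less between the treatments than the cytokines. The cytokines were picked for being lower with BMS493, so nothing is read from that contrast. The ratio of the summed level with BMS493 to that in controls was 1.20 in B6 and 0.983 in A/J for lung epithelium, 0.995 and 0.950 for blood endothelium, 0.865 and 0.903 for lymphatic endothelium, and 1.08 and 1.08 for lung fibroblasts. Without replicate 3 of the B6 BMS493 group, left out here after its values were seen, the B6 ratio of the fibroblast markers was 0.912. The B6 ratio of the epithelial markers was 1.07 without replicate 2 with BMS493, the highest library at 2730 CPM, likewise left out after its value was seen. The 8 neural markers had ratios of 0.794 in B6 and 0.868 in A/J, with fold changes below 0 for 7 of 8 in each strain. By edgeR 0 of the 8 were called in either strain, where 0.423% (B6) and 0.486% (A/J) of all genes were, and 1 (Tubb3, lower) averaged over the strains, where 1.37% were. Their summed level was 37.6 to 45.6 CPM in B6 controls and 30.3 to 35.2 CPM in B6 with BMS493, which do not overlap, and 28.2 to 36.8 against 27.5 to 31.1 CPM in A/J, which do. For smooth muscle the ratios were 0.871 and 0.894, and for mesothelium 0.960 and 0.872. The groups did not overlap either for lymphatic endothelium in B6 (262 to 284 CPM in controls, 198 to 248 CPM with BMS493), smooth muscle in B6 (1110 to 1173 and 909 to 1109 CPM) and mesothelium in A/J (169 to 177 and 141 to 160 CPM), while for the other lists they overlapped in both strains. The part of these markers in the levels of the cytokines was not tested. For macrophages, a source of BAFF, the ratios were 0.925 and 0.974. Their summed level was 146 to 164 CPM in B6 controls and 134 to 150 CPM in B6 with BMS493. In A/J it was 160 to 174 CPM in controls and 156 to 169 CPM with BMS493. All 12 macrophage markers had counts in every group, and edgeR called 0 in either strain, against the same shares of all genes. Fold changes were below 0 for 11 of the 12 in B6 (median log2 -0.11) and for 7 of the 12 in A/J (median -0.03). The ratios for the cytokines were 0.292 and 0.228 for Il33 and 0.325 and 0.192 for Tnfsf13b. Among 16 marker lists the lowest ratio was 0.542, for 6 thymus genes in B6 that were too rare to test, and outside that list it was 0.778, for neutrophils in B6. The 5 neutrophil markers tested had median log2 fold changes of -0.91 in B6 (4 of 5 below 0) and -0.43 in A/J (3 of 5). By edgeR 0 of the 5 were called in either strain, where 0.423% (B6) and 0.486% (A/J) of all genes were. When each library was left out in turn, the lowest ratios were 0.378 for the thymus genes (B6, without replicate 3 with BMS493) and 0.534 outside that list, for neutrophils (A/J, without replicate 3 with BMS493). In the fibroblast list 1 gene (Foxf1) and in the smooth muscle list 1 gene (Actg2) were called lower in B6, where 0.423% of all genes were called, the former not in 4 of 17 alternatives (edgeR adjusted p up to 0.130). Averaged over the strains, where 1.37% of all genes were called, 3 of the 8 smooth muscle markers (Acta2, Cnn1 and Actg2) were called lower. So were 1 of the 10 fibroblast markers (Foxf1) and 1 of the 9 mesothelium markers (Upk3b). A rare cell type that makes most of either cytokine and is not on these lists was not tested for.

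**Figure D5:**
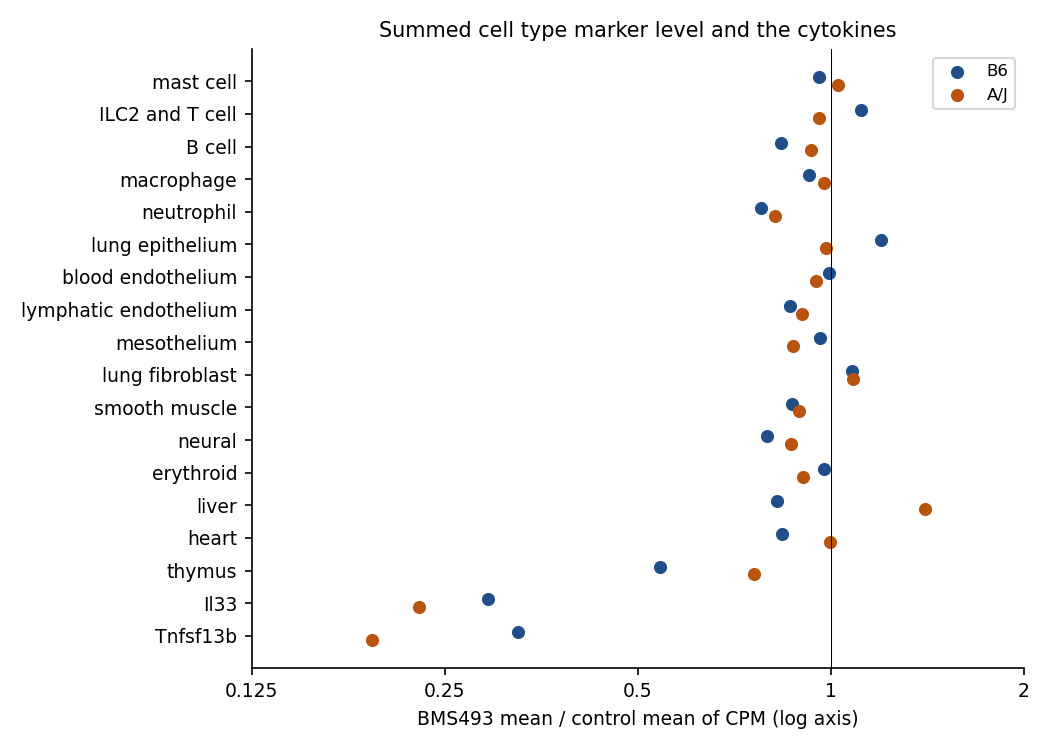
Mean summed CPM with BMS493 divided by that in controls for 16 lists of cell type markers, and the same ratio for Il33 and Tnfsf13b, in B6 (blue) and A/J (orange) on a log axis. The cytokines, which were picked for being lower with BMS493, lie between 0.192 and 0.325, below every marker list.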

How the data were processed

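The authors deposited raw counts of fragments per gene for each library, with 1 column regardless of strand and 1 for each strand. FastQC, cutadapt, STAR and the build GRCm39 are named per the submitters' processing notes; versions and the annotation are not given in the sources used here. The first strand held 51.0% to 52.0% of stranded counts, so the column without strand was used. Assigned fragments made up 71.7% to 76.9% of each library. Symbols and exon lengths came from GENCODE M21, matched by identifier without version for 51933 of 57180 genes.

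In R 4.3.3, edgeR 4.0.16 kept 17276 genes and left out 39904 as too low (filterByExpr), scaled the libraries with TMM and fitted 1 quasi-likelihood model with a term for each group over the 16 libraries (12 residual degrees of freedom). Its two-sided p-values were adjusted over all genes by the Benjamini-Hochberg method, and an adjusted p under 0.05 made a call. CPM on the log2 scale had a prior count of 2 added. The steps were tested on simulated data. Intervals and floors cover counting error and replicate spread only as stated, since reads carry no molecular identifiers.

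The genes, lists, markers and motifs were chosen with earlier results of these data known. Named genes are the 4 genes, list genes called with BMS493 (or else up to 3 called between strains), ligands and receptors of both pathways, and the 5 genes most like each of the 4; other list genes were named for their role or their level. Retinoid hexamers (AGGTCA and its variants AGTTCA as well as GGGTCA and also GGTTCA), their direct repeats DR1, DR2 and DR5, GAS (TTCNNNGAA), ISRE (GAAANNGAAA), kappaB, AP-1 (TGANTCA) and TATAAA were searched on both strands of RefSeq promoters (GRCm38.p6).

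Alternatives were DESeq2 1.42.0, RLE scaling, either stranded column, no filter on low counts or a mean CPM of 1 or more, a fit to only those libraries that enter a comparison, a replicate block, a covariate for the library names, and leaving out each library.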

Additional observations from a re-analysis of the deposited data

How the results depend on the processing

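Of 464 alternative values for the 4 genes, 460 kept their call or, for the untested cytokines, stayed within 1 SD of the log2 CPM between replicates of the groups compared. Over the alternatives, the log2 fold change of Il33 was between -2.02 and -1.54 in B6 and between -2.45 and -1.81 in A/J. That of Tnfsf13b was between -2.01 and -1.31 in B6 and between -2.57 and -2.12 in A/J. The A/J minus B6 difference of Tnfsf13b in controls was 1.15 with the second strand column in place of 0.99, where that SD is 0.13. That of Il1rap in controls was -0.23 and called (edgeR adjusted p = 0.0464) with only the libraries compared. That of Il1rap with BMS493 ran from -0.32 to -0.10 when each library was left out in turn, and was called in 2 of these fits. The cause was not tested. With BMS493 the A/J minus B6 difference ran from -1.17 to -0.10 for Il33 and from -0.08 to 0.61 for Tnfsf13b over all alternatives. The difference between the strains in the BMS493 effect ran from -0.90 to 0.10 for Il33 and from -1.07 to -0.38 for Tnfsf13b.

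The number of all genes called moved more. It was 73 in B6, from 27 (only the libraries compared, or without B6 control replicate 1) to 260 (no filter on low counts). In A/J it was 84, from 52 (without A/J BMS493 replicate 3) to 178 (no filter). Averaged over the strains it was 237 and reached 487 with no filter, and for the difference between the strains it was 1 and reached 12. The retinoic acid targets called in B6 were 3 in place of 5 with only the libraries compared and without each of B6 control replicates 1 to 4 and B6 BMS493 replicate 2. The enzymes called in A/J were 1 in place of 2 with either stranded column and without each of the A/J controls and A/J BMS493 replicates 3 and 4.

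With the replicate number as a replicate block the fold changes were -1.79 and -2.15 for Il33 and -1.69 and -2.44 for Tnfsf13b (B6, A/J), and no call for Il1rl1 or Il1rap changed. Same-numbered libraries of different groups had correlations of their deviations from -0.147 to 0.148, with 3 of 24 over 0.1. The mean was 0.003, against -0.001 for libraries with other numbers. Of 16 libraries 7 correlated best with one of their own number, and whether the numbers pair the libraries was not tested. At 5 to 57 counts per library with BMS493, the levels of the cytokines within that group are imprecise, and a difference between the strains of the size of its SE could not be detected.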
